A study of Homo sapiens with 8 samples.

Results

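Ponatinib is an oral inhibitor of the ABL kinases that also binds receptor tyrosine kinases, and 10 of these receptors were followed at the mRNA level in LM2 breast cancer cells. They are the fibroblast growth factor receptors FGFR1, FGFR2, FGFR3 and FGFR4, the platelet-derived growth factor receptors PDGFRA and PDGFRB, the vascular endothelial growth factor receptors FLT1 and KDR, the stem cell factor receptor KIT, and RET, the signalling receptor of the GDNF family. The genes were chosen as known targets of the drug and were found by symbol among 58688 gene rows in RNA-seq counts of 8 samples. LM2 is a lung metastatic derivative of MDA-MB-231, an established human line of triple negative breast cancer, and carries luciferase. In the first set, 2 samples received the solvent DMSO and 2 received 1 µmol/L Ponatinib, with 6 h of exposure. In the second set, 1 sample carried a scrambled control shRNA (shCtrl), 1 an ABL1 shRNA, 1 an ABL2 shRNA and 1 both shRNAs. These were puromycin-selected pools of lentivirally infected cells, with 1 shRNA sequence per ABL gene, so no group of the second set had a replicate.

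Receptor tyrosine kinases cross the cell membrane once, bind a secreted growth factor outside the cell and phosphorylate themselves and their adaptors inside it. FGF receptors signal mainly through the docking protein FRS2 to the RAS and MAP kinase pathway and need heparan sulphate as a co-receptor. PDGF receptors are typical of fibroblasts and of the mural cells around vessels, VEGF receptors of endothelium, KIT of mast cells, melanocytes and blood progenitors, and RET of neurons and neural crest derivatives. Tumour cells transcribe these genes to very different degrees, so whether a given target is transcribed in LM2 at all is the first question for the drug's receptor targets.

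The samples held 7568934 to 13010896 counts on genes, so that 3 counts, used here as the one-sided limit for a count of 0, corresponded to 0.231 to 0.396 CPM, the usual depth-scaled unit of counts on a gene per 1000000 counts on all genes. Intervals and floors given here cover counting error only. The 4 mesenchymal markers VIM, CD44, AXL and CAV1 were above 1 CPM in every sample, PGR was at 0 in all 8, and ESR1 stayed below 1 CPM. Of the other genes listed as low in this line, CDH1 reached 1.77 CPM at most, while EPCAM was at 5.08 to 12.0 CPM and ERBB2 at 52.7 to 68.0 CPM. The targeted genes followed the labels. With the ABL1 shRNA the ABL1 level was 0.384 of that in shCtrl, and with the ABL2 shRNA the ABL2 level was 0.396 of it. With both shRNAs ABL1 was at 0.576 and ABL2 at 0.625 of the shCtrl level, so each gene was reduced less in the double knockdown than in its own single knockdown. Of markers of the cells that normally carry these receptors, the endothelial genes CDH5 and TEK, the fibroblast genes DCN and LUM and the neural crest gene SOX10 did not reach 1 CPM in any sample. Others of these lists did: the endothelial gene PECAM1 was at 2.38 to 40.1 CPM and the fibroblast and mural genes COL1A1 and RGS5 at 61.3 to 398 and 1.04 to 4.84 CPM, and VWF, TIE1, COL3A1, ACTA2, CD34, CPA3 and TH passed 1 CPM in some samples. The summed level of 4 haematopoietic markers was 2.01 to 5.42 CPM. The 2 sets were not compared with each other, because 68 genes that reached 100 counts in each sample of the first set were at 0 throughout the second.

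Of the 10 receptor genes, 4 were at or above 1 CPM in all 8 samples, namely FGFR1, FGFR4, PDGFRB and KDR. FGFR3 was above 1 CPM in the 4 DMSO and Ponatinib samples and in 3 of the 4 shRNA samples, and was at 0.80 CPM with the ABL2 shRNA. The other 5, FGFR2, PDGFRA, FLT1, KIT and RET, gave almost no reads. Among all genes, 14747 of 58688 were at or above 1 CPM throughout the first set and 13881 throughout the second.

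**Figure D1:**
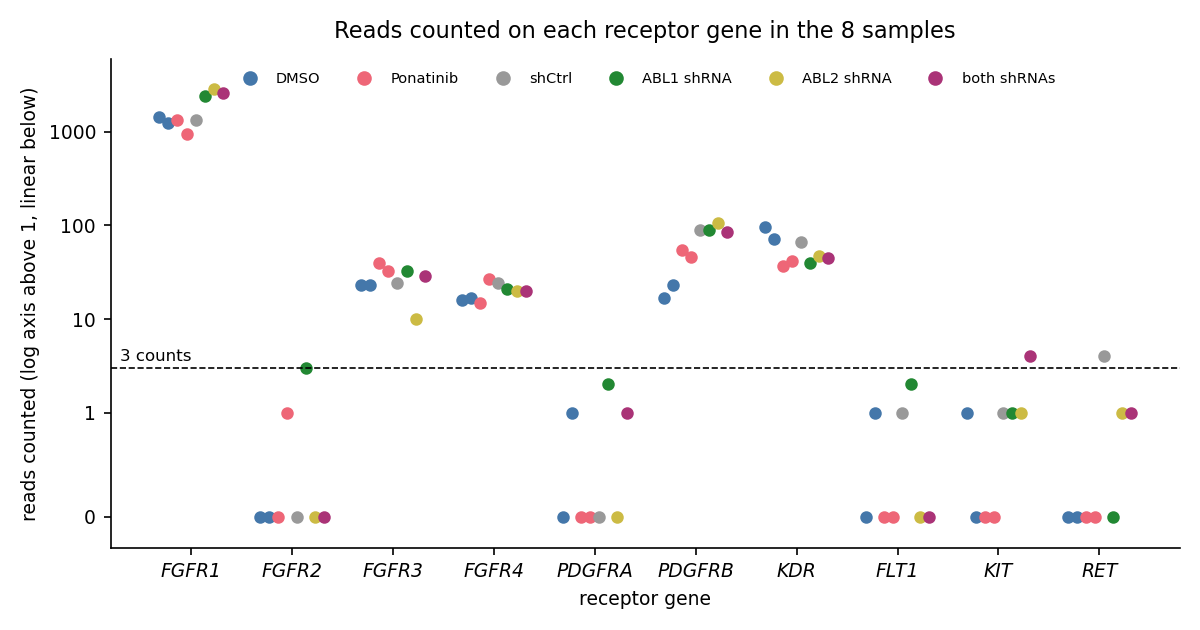
Reads counted on each of the 10 receptor genes (horizontal axis) in each of the 8 samples (points, coloured by group), on a vertical axis that is logarithmic above 1 and linear below, with a dashed line at 3 counts. FGFR1 lies between 959 and 2864 counts in every sample, FGFR3, FGFR4, PDGFRB and KDR lie between 10 and 106, and the other 5 genes never exceed 4.

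FGFR2, whose epithelial isoform binds FGF7 and FGF10, had 1 count in Ponatinib replicate 2, 3 with the ABL1 shRNA and 0 in the other 6 samples. PDGFRA, the PDGF receptor of mesenchymal progenitors, had 1 count in DMSO replicate 2, 2 with the ABL1 shRNA and 1 with both shRNAs. FLT1, a high-affinity VEGF and PGF receptor, had 1 count in DMSO replicate 2, 1 in shCtrl and 2 with the ABL1 shRNA. Each of these genes thus had 4 counts among 88626106 in the 8 samples together, a pooled level of 0.045 CPM (exact Poisson 95% interval 0.012 to 0.12). KIT had 8 counts over the 8 samples, of which 4 were in the sample with both shRNAs, and RET had 6, of which 4 were in shCtrl. These were the only values of the 5 genes above 3 counts. KIT was at 0 in both Ponatinib samples and RET in all 4 samples of the DMSO and Ponatinib set. The upper 95% counting limits of these 5 genes were at most 0.88 CPM in any sample. A change below that level with drug or knockdown was not detectable at this depth, and none of the 5 passed the filter on low counts in either set. PDGFRA lies on chromosome 4 (GRCh38, 54229280 to 54298245, plus strand) beside KIT (54657267 to 54740783, plus strand), with KDR further along the same chromosome, and in the GENCODE 44 annotation it shares exons with a readthrough transcript model that has no row in the count tables.

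Levels of different genes were compared as CPM per kilobase of merged exons. In DMSO, FGFR1 stood at 7.23 ± 0.024 CPM per kilobase (SD, n = 2), above 75.7% of the genes with a count in DMSO. KDR followed at 1.21 ± 0.14, FGFR3 at 0.442 ± 0.042, FGFR4 at 0.320 ± 0.044 and PDGFRB at 0.264 ± 0.080. FGFR1 was 5.95 times KDR, 16.3 times FGFR3, 22.6 times FGFR4 and 27.4 times PDGFRB on this scale. The DMSO samples of FGFR1, KDR and FGFR3 each lay above those of every gene below them, although the counting intervals of FGFR3 and FGFR4 overlapped, and the samples of FGFR4 and PDGFRB overlapped with each other. With the length of the canonical transcript in place of merged exons, FGFR3 and FGFR4 were level at 0.498 and FGFR1 was at 21.8. FGFR1 was then 16.5 times KDR, 43.8 times FGFR3, 43.8 times FGFR4 and 66.0 times PDGFRB. The ratios to FGFR1 thus depended on the length used, and the percentile was taken with merged exons only.

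In Ponatinib the order below FGFR1 (7.42 ± 0.073 per kilobase) became FGFR3 at 0.846 ± 0.075, PDGFRB at 0.796 ± 0.078, KDR at 0.718 ± 0.22 and FGFR4 at 0.521 ± 0.31 (SD, n = 2), and each neighbouring pair of these overlapped. In shCtrl it was FGFR1 at 6.79, PDGFRB at 1.07, KDR at 0.896, FGFR4 at 0.430 and FGFR3 at 0.426 per kilobase, where the counting intervals of PDGFRB and KDR overlapped, as did those of FGFR4 and FGFR3. FGFR1 supplied 86.6% to 93.9% of all counts on the 10 genes in a sample, and 68.6% to 85.3% of their summed level per kilobase. Its share was lowest in Ponatinib replicate 2 and highest with the ABL2 shRNA on both measures.

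Ponatinib was compared with DMSO to see which of the receptors it binds also change at the mRNA level. PDGFRB and FGFR3 rose, KDR fell, and FGFR1 and FGFR4 did not pass the test, while the other 5 genes could not be tested. Thus 3 of the 5 receptors tested passed edgeR's quasi-likelihood test, with the mark at an adjusted p of 0.05. Across all 16031 genes tested the share was 30.7%, with 15% rising and 15.7% falling. The median log2 fold change of the 5 receptors was 0.57, against -0.0047 over all genes tested. That median is the value of FGFR4, which did not pass and whose direction depended on 1 sample. By the rule of a fold over 2 with an unadjusted p under 0.05, which 5.48% of genes met, 1 receptor remained, PDGFRB. Nothing in the labels says that the repeats were separate cultures, so the p-values measure the spread between these samples only.

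The promoters of the 3 genes that passed are shown so that the start regions of the genes that rose and of the one that fell can be read side by side. Each is the 250 bases before the RefSeq start site (GRCh38.p14), written 5′ to 3′ on the gene's strand, with capitals for matches to the CCAAT box (CCAAT) or the GC box (GGGCGG, or CCGCCC where the match is on the opposite strand). PDGFRB is at chr5:150155846-150156095, minus strand, KDR at chr4:55125596-55125845, minus strand, and FGFR3 at chr4:1793043-1793292, plus strand. In the GENCODE 44 annotation PDGFRB reaches to 150155872, so the last bases of its window lie within the gene there. The KDR and FGFR3 windows border their genes in that annotation.
PDGFRB: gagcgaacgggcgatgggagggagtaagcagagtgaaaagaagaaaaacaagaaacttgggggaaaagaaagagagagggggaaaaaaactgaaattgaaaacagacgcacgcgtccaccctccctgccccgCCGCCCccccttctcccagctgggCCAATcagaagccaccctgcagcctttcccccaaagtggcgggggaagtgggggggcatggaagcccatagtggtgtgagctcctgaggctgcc
KDR: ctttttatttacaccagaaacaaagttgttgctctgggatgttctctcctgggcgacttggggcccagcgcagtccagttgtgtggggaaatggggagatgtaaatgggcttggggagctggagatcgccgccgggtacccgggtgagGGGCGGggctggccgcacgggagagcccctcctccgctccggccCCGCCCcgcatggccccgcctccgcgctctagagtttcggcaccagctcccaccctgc
FGFR3: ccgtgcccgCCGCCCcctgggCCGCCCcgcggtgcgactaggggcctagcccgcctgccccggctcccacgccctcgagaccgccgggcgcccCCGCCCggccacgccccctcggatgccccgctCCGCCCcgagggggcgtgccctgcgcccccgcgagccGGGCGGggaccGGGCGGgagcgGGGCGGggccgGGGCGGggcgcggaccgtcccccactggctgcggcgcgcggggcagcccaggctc
The FGFR3 window held 8 GC boxes at 86.8% G and C, the KDR window 2 at 65.2%, and the PDGFRB window 1 at 58.4% together with 1 CCAAT box 94 to 90 bases before the start. Of 35116 promoters of the same length, 42.64% held a GC box and 32.01% a CCAAT box on either strand. The TATA box (TATAAA, in 10.72% of promoters), the AP-1 element (TGANTCA, in 6.573%) and the ETS core (CCGGAAG, in 8.517%) had no match in these 3 windows, and no match overlapped another. The table used held a start for 9 of the 10 receptor genes, all except FGFR1.

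PDGFRB, the receptor for PDGF-BB and PDGF-DD (GRCh38 chromosome 5, 150113839 to 150155872, minus strand), was at 1.48 and 2.29 CPM in DMSO and at 5.29 and 6.08 CPM in Ponatinib, from 17, 23, 55 and 46 counts. Both treated samples lay above both controls. The mean went from 1.88 ± 0.57 to 5.68 ± 0.56 CPM (SD, n = 2), a log2 fold change of 1.55 (SE 0.27, edgeR adjusted p = 0.00046) or 2.93-fold, and its 95% interval ran from 0.97 to 2.12. Of 6 fibroblast and mural cell markers, 3 were tested and 1 rose, COL1A1, by 0.34 on the log2 scale (edgeR adjusted p = 0.0033). RGS5 and ACTA2, at 0.24 and -0.40, did not pass (edgeR adjusted p = 0.54 and 0.56). The summed level of the 6, most of it COL1A1, was 65.7 to 66.7 CPM in DMSO and 80.6 to 89.7 CPM in Ponatinib, and its part in the PDGFRB result was not tested. In such bulk samples, more cells expressing a gene and more RNA per cell cannot be told apart.

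FGFR3, an FGF receptor known for its role in limiting long bone growth and for mutations in bladder cancer (chromosome 4, 1793293 to 1808872, plus strand), was at 2.00 and 2.29 CPM in DMSO and at 3.84 and 4.36 CPM in Ponatinib, from 23, 23, 40 and 33 counts. The groups did not overlap. The mean was 2.14 ± 0.21 CPM in DMSO and 4.10 ± 0.36 CPM in Ponatinib (SD, n = 2), a log2 fold change of 0.88 (SE 0.26, 95% interval 0.32 to 1.44, edgeR adjusted p = 0.019). With a replicate left out, 1 group holds a single sample that is taken to vary like the other group's pair, here and for the genes below. Fitted so, the FGFR3 call was lost without DMSO replicate 1 (adjusted p = 0.15), without DMSO replicate 2 (0.052) or without Ponatinib replicate 2 (0.053) in edgeR, and in DESeq2 (0.19), with log2 fold changes of 0.78, 0.98, 0.80 and 0.89.

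KDR, the main signalling receptor for VEGFA (chromosome 4, 55078481 to 55125595, minus strand), was at 8.34 and 7.06 CPM in DMSO and at 3.56 and 5.55 CPM in Ponatinib, from 96, 71, 37 and 42 counts. Both treated samples were below both controls, with the treated pair further apart than the control pair. The mean was 7.70 ± 0.90 CPM in DMSO and 4.55 ± 1.41 CPM in Ponatinib (SD, n = 2), a log2 fold change of -0.85 (SE 0.22, 95% interval -1.33 to -0.37, edgeR adjusted p = 0.0094). In edgeR the call was lost without DMSO replicate 1 (-0.71, adjusted p = 0.080) and without Ponatinib replicate 1 (-0.52, 0.093), and DESeq2 gave -0.82 (0.086). The 2 endothelial markers that could be tested, PECAM1 and TIE1, differed between the groups by -0.016 and -1.12 on the log2 scale, with adjusted p = 0.98 and 0.11 in edgeR. By the rule of a fold over 2 with an unadjusted p under 0.05, TIE1 passed (edgeR unadjusted p = 0.044) and PECAM1 did not. That rule was met by 5.48% of genes. The summed level of all 5 endothelial markers was 4.26 to 5.47 CPM in DMSO and 2.77 to 5.19 CPM in Ponatinib, and its part in the KDR result was not tested.

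FGFR1, the broadly expressed FGF receptor of mesenchymal cells (chromosome 8, 38400215 to 38468834, minus strand), was at 124 and 125 CPM in DMSO and at 128 and 127 CPM in Ponatinib. The log2 fold change was -0.0060 (SE 0.063, edgeR adjusted p = 0.96), with a 95% interval of -0.14 to 0.13. Its sign depended on the scaling: with total counts in place of TMM factors it was 0.039. FGFR1 had by far the most reads of the receptors, 959 to 1427 per sample, and the narrowest interval of the 5.

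FGFR4, an FGF receptor best known in liver as the receptor of FGF19 (chromosome 5, 177086905 to 177098144, plus strand), was at 1.39 and 1.69 CPM in DMSO and at 1.44 and 3.57 CPM in Ponatinib, from 16, 17, 15 and 27 counts. Ponatinib replicate 1 lay between the DMSO samples and replicate 2 above them. The log2 fold change of 0.57 (SE 0.40, 95% interval -0.29 to 1.43, edgeR adjusted p = 0.31) turned to -0.13 without Ponatinib replicate 2 and was 1.18 without replicate 1, so that its direction depended on 1 sample. The fit without replicate 1 had an edgeR adjusted p of 0.015, but its single Ponatinib sample was taken to vary like the DMSO pair, which lay closer together than the Ponatinib pair.

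**Figure D2:**
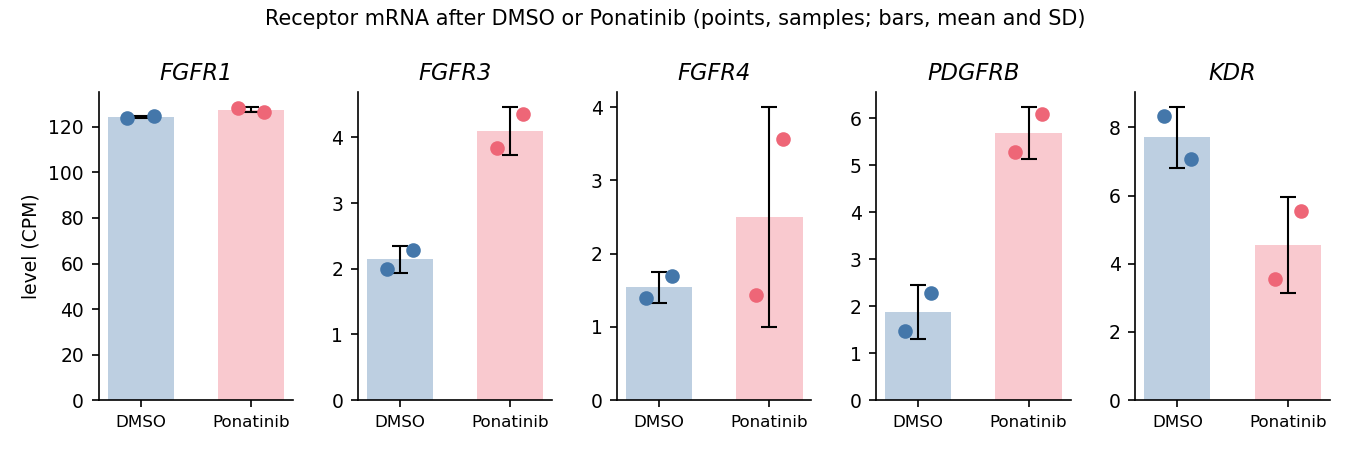
Level in CPM (vertical axis, separate linear scale from 0 for each gene) of the 5 receptor genes that could be tested, in 2 DMSO and 2 Ponatinib samples. Points are samples, bars the mean and error bars the SD. PDGFRB and FGFR3 are higher in both Ponatinib samples (5.29 and 6.08, 3.84 and 4.36 CPM), KDR is lower in both, and the Ponatinib samples of FGFR4 stand apart at 1.44 and 3.57 CPM.

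The knockdowns were compared with shCtrl to see whether loss of the ABL kinases themselves moved the same receptors. With 1 sample per group there is no replicate check, the 3 comparisons share the same shCtrl sample, and the intervals below come from the 2 counts alone. FGFR1 was higher and KDR lower in all 3 knockdown samples than in shCtrl. With a fold over 2 in either direction as the mark, 0 of 5 receptors kept by the filter were past it with the ABL1 shRNA, 1 with the ABL2 shRNA and 0 with both, while 9.19%, 8.11% and 8.23% of all 16172 genes were past it. With a fold over 1.5 the numbers were 2, 3 and 2 of 5, against 24.3%, 20.4% and 21.8% of genes, and the receptors past it were FGFR1 and KDR in each knockdown and FGFR3 with the ABL2 shRNA.

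FGFR1 was at 117 CPM in shCtrl, 188 CPM with the ABL1 shRNA, 230 CPM with the ABL2 shRNA and 215 CPM with both, from 1356, 2446, 2864 and 2581 counts. The scaled level was 1.58 times shCtrl with the ABL1 shRNA (95% interval 1.48 to 1.69), 1.91 times with the ABL2 shRNA (1.79 to 2.04) and 1.78 times with both (1.67 to 1.90). All 3 knockdown samples lay above shCtrl by far more than counting error. Each ratio was also above 1.5, although the interval with the ABL1 shRNA began just below it. Of all genes, 4.86% exceeded 1.5-fold upward in all 3. In an edgeR fit of all 8 samples, which takes the lone shRNA samples to vary as the replicates of the first set did, FGFR1 passed in each comparison (adjusted p = 1.7e-05, 3.9e-07 and 1.8e-06) and was the 1 receptor called, while 22%, 15.6% and 17.8% of genes were called. A single shCtrl sample with a low FGFR1 level cannot be told apart from higher levels in the knockdowns. LETM2, a gene on the opposite strand whose exons overlap FGFR1, was at 3.10 CPM in shCtrl and at 6.23, 8.27 and 6.16 CPM in the same 3 samples, and at 7.56 and 8.26 CPM in DMSO and 5.09 and 3.44 CPM in Ponatinib. The strand setting of the counting is not given in the sources used here, so reads on the shared bases cannot be assigned to a gene. LETM2 had 103 counts at most and FGFR1 959 or more. How many reads fell on the shared bases is not known, and the part of the overlap in the FGFR1 result was not tested.

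KDR was at 5.68 CPM in shCtrl, 3.07 CPM with the ABL1 shRNA, 3.77 CPM with the ABL2 shRNA and 3.75 CPM with both, from 66, 40, 47 and 45 counts. Its scaled level was 0.532 of shCtrl (95% interval 0.35 to 0.799), 0.644 (0.433 to 0.95) and 0.638 (0.427 to 0.946), so each interval stayed below 1. A level lower by over 1.5-fold in all 3 knockdowns was found for 2.94% of genes. The edgeR fit of all 8 samples did not call KDR in any of them (adjusted p = 0.051, 0.20 and 0.19). The summed level of the 5 endothelial markers was 21.9 CPM in shCtrl and 33.4, 42.5 and 34.9 CPM in the knockdowns, of which PECAM1 made up 20.1, 30.6, 40.1 and 32.7 CPM. TIE1 had 7 counts in shCtrl and 18, 20 and 11 in the knockdowns, and VWF had 12 in shCtrl and 17, 7 and 11. Of the TIE1 and VWF ratios to shCtrl, only that of TIE1 with the ABL2 shRNA had an interval without 1 (2.58, 1.05 to 7.23). PECAM1 was at 1.499 times shCtrl with the ABL1 shRNA (95% interval 1.27 to 1.77) and 1.94 times with the ABL2 shRNA (1.65 to 2.27). With both shRNAs it was at 1.58 times (1.34 to 1.86), so all 3 PECAM1 intervals lay above 1. CDH5 and TEK had at most 3 counts in any shRNA sample. The part of the endothelial markers in the KDR result was not tested.

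FGFR3 was at 2.07 CPM in shCtrl, 2.54 CPM with the ABL1 shRNA, 0.80 CPM with the ABL2 shRNA and 2.41 CPM with both. The ABL2 shRNA sample was the low one, with 10 counts against 24 in shCtrl, a ratio of 0.377 (95% interval 0.161 to 0.817), and this was the single receptor value past 2-fold. The sample with both shRNAs did not share it, at 1.13 times shCtrl (0.636 to 2.03), and the edgeR fit of all 8 samples did not call it (adjusted p = 0.072).

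PDGFRB, which of the 5 had the largest log2 fold change under the drug, was at 7.67 CPM in shCtrl and at 6.84, 8.51 and 7.08 CPM in the knockdowns with the ABL1 shRNA, the ABL2 shRNA and both. The ratios to shCtrl were 0.877 (95% interval 0.647 to 1.19), 1.08 (0.805 to 1.44) and 0.894 (0.656 to 1.22), so all 3 intervals included 1 and ended below 1.5. The summed level of the 6 fibroblast and mural markers was 407 CPM in shCtrl and 106, 233 and 145 CPM in the same knockdown samples. COL1A1 alone made up 398, 98.8, 229 and 140 CPM of these sums. COL3A1 was also lower than in shCtrl in all 3 knockdowns. RGS5 was at 1.58, 0.336 and 1.02 times shCtrl and ACTA2 at 1.28, 1.46 and 1.08 times. The part of these markers in the PDGFRB values was not tested. FGFR4 was at 2.07 CPM in shCtrl and between 1.61 and 1.66 CPM in the knockdowns, with ratios of 0.768, 0.754 and 0.780 whose intervals all included 1 and reached from 0.395 to 1.47. With 20 to 24 counts per sample, a difference of FGFR4 within these intervals was not detectable.

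**Figure D3:**
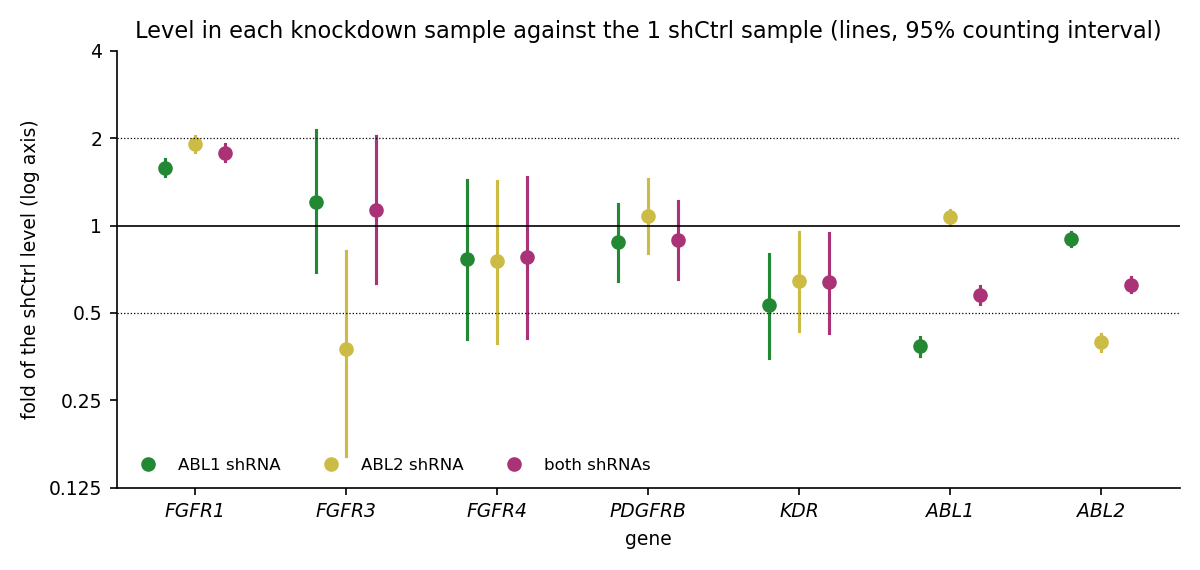
Level of 5 receptor genes and of the targeted ABL1 and ABL2 in each knockdown sample as a fold of the shCtrl sample (vertical log axis), with 95% counting intervals as lines and dotted lines at 0.5 and 2. FGFR1 lies between 1.58 and 1.91 in all 3 knockdowns, KDR between 0.532 and 0.644, the FGFR4 and PDGFRB intervals include 1, and FGFR3 is at 0.377 with the ABL2 shRNA.

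The values of the drug and knockdown comparisons stand side by side as follows. PDGFRB had a log2 fold change of 1.55 with the drug and log2 ratios of -0.19, 0.11 and -0.16 with the ABL1 shRNA, the ABL2 shRNA and both. FGFR1 had -0.0060 with the drug and 0.66, 0.93 and 0.83 in the knockdowns. KDR had a negative value in all of them, at -0.85 with the drug and -0.91, -0.63 and -0.65 in the knockdowns. FGFR3 had 0.88 with the drug and 0.27, -1.41 and 0.18 in the knockdowns, and FGFR4 had 0.57 and -0.38, -0.41 and -0.36. The differences between drug and knockdown were not tested.

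FGFR1 was the only receptor with at least 50 counts in every sample, so it was the one for which genes with a like pattern were sought. Over the 8 samples, centred within each set, the 2 genes of 10465 with the closest pattern were HYOU1 (Pearson r = 0.993), a chaperone of the endoplasmic reticulum, and SEC24D (r = 0.992), a coat protein of the vesicles that leave it. HYOU1 was at 149 CPM in shCtrl and 219, 252 and 234 CPM in the knockdowns. SEC24D was at 96.5 CPM in shCtrl and 114, 124 and 121 CPM in the knockdowns. The 8 points share libraries, and the likeness rests mainly on shCtrl against the 3 knockdown samples.

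Among the ligands of the 5 receptor families, 15 of 33 genes were tested with Ponatinib, of which 4 rose and 5 fell in edgeR, with a median log2 fold change of 0.19, against the 30.7% of all genes called (15% up and 15.7% down). For KDR, the ligand VEGFA rose from 117 and 130 CPM to 189 and 213 CPM (log2 fold change 0.66) while VEGFC, which acts mainly on lymphatic endothelium, fell by 0.81 on the log2 scale. PGF, a ligand of FLT1, fell by 0.57. For the FGF receptors, FGF5 fell from 48.2 and 43.1 CPM to 9.42 and 8.32 CPM (-2.40) and FGF1, which binds all 4 FGFRs, changed by -0.94. For the PDGF receptors, PDGFA, a ligand of PDGFRA, fell by 1.24, whereas the PDGFRB ligands PDGFB and PDGFD, at 0.19 and 0.53, did not pass (edgeR adjusted p = 0.66 and 0.060). KITLG, the ligand of KIT, rose by 0.92, and the RET system ligands GDF15 and ARTN by 2.11 and 2.14, in cells where KIT and RET themselves had no count in either Ponatinib sample. In the knockdowns, 2 ligands were past 2-fold in the same direction in all 3 samples, as were 2.59% of all genes kept: PDGFB, at 11.5 CPM in shCtrl and 4.0, 3.93 and 2.83 CPM in the knockdowns, and FGF19, with 1 count in shCtrl and 10, 7 and 10 in the knockdowns. The FGF19 ratios had intervals as wide as 1.33 to 406 and, with the ABL2 shRNA, one that included 1.

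Of 16 co-receptors and related genes, 9 were tested, and 4 rose and 4 fell with Ponatinib (median -0.13 on the log2 scale), again beside 30.7% of all genes. FGFRL1, an FGF-binding relative of the FGFRs without a kinase domain, rose from 59.9 and 66.8 CPM to 135 and 152 CPM, a log2 fold change of 1.13. The syndecan SDC2 rose by 1.02 and the glypican GPC1 by 0.31, while SDC1 and SDC4 fell by 0.35 and 0.26 and CD44 by 0.41. The VEGF co-receptors went opposite ways, NRP2 rising by 0.80 and NRP1 falling by 0.31. None of the 9 was past 2-fold in any knockdown, a mark that 8.11% to 9.19% of all genes passed.

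Of 22 adaptors and signalling proteins close to the receptors, 20 were tested, of which 4 rose and 3 fell (median 0.06), a share near the 30.7% called over all genes. FRS2, the main FGFR docking protein, fell by 0.34 and its relative FRS3 rose by 0.60. SHC1 fell by 0.34 and SH2B3, a negative regulator of receptor signalling, by 1.04, while the RAS exchange factor SOS2 rose by 0.70, the docking protein GAB1 by 0.40 and the ubiquitin ligase CBLB by 1.06. Of 24 other kinases that the drug is known to bind or that are close to them, 16 were tested, of which 4 rose (DDR1 by 0.61, FYN by 0.48, EPHB4 by 0.41 and ABL1 by 0.19) and 2 fell (EPHA2, at -1.94, and ABL2, at -1.02), which is also near the 30.7% of all genes. The receptors FLT3, FLT4 and TEK of that list had at most 2 counts in any sample. In neither list was a gene past 2-fold in the same direction in all 3 knockdowns.

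**Figure D4:**
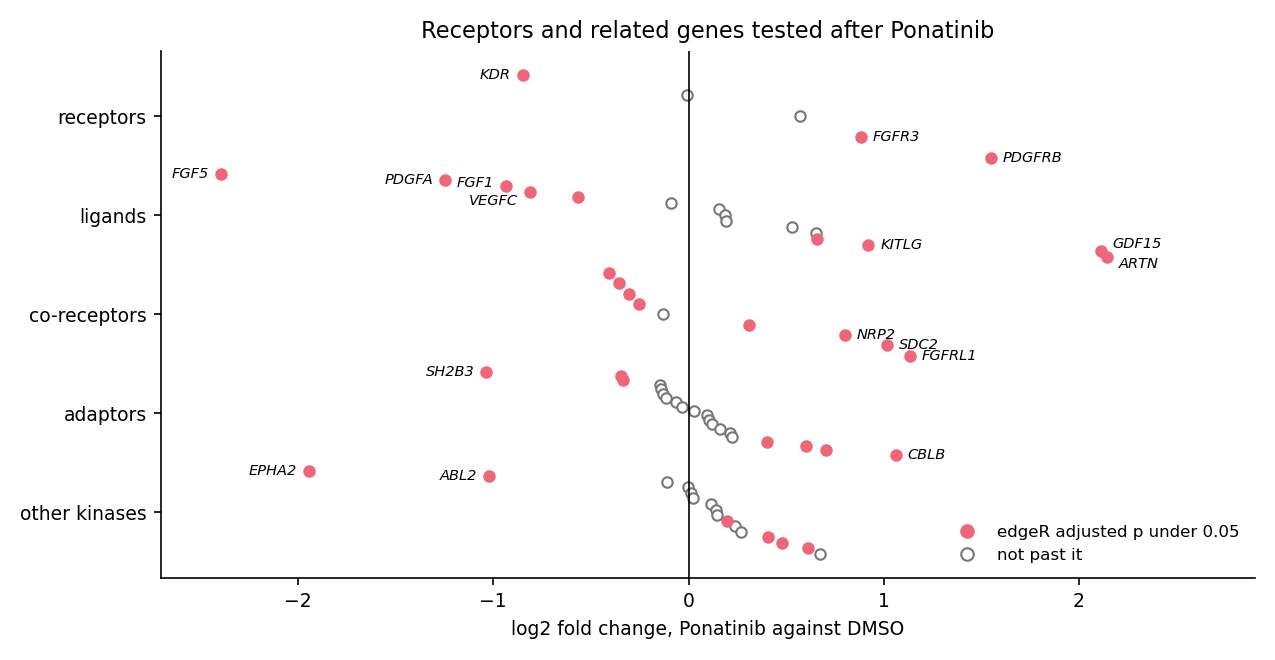
Log2 fold change with Ponatinib against DMSO (horizontal axis) of every gene that could be tested among the receptors, their ligands, co-receptors, adaptors and other kinases (rows); filled points have an edgeR adjusted p under 0.05, and names are given for the receptors that passed and for others past 0.75. Filled points lie on both sides of 0 in every row, from FGF5 at -2.40 to ARTN at 2.14.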

How the data were processed

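RNA was sequenced from 8 samples of LM2 cells, and the authors deposited 1 table of read counts per gene for each sample, made with HTSeq 0.6.0 after TopHat alignment to hg38 per the labels. The annotation release and strand setting are not given in the sources used here. In the tables of shCtrl and the ABL1 shRNA the column heads disagreed with the labels. Samples were used as labelled, which the ABL1 counts fitted. Of the gene IDs, 93.4% matched a symbol. Positions and exon lengths came from GENCODE 44. The receptors and the gene lists were chosen with earlier results of these data known. CPM is counts scaled to 1000000 counts on genes. Ponatinib was compared with DMSO in edgeR 4.0.16 (TMM, filterByExpr, prior count 0.125, quasi-likelihood test, Benjamini-Hochberg over 16031 genes), with DESeq2 1.42.0 as an alternative. On simulated data for this comparison, 175 of 200 changed genes were recovered with 10 false calls among 15772 genes. Knockdown ratios used TMM factors of the 4 shRNA samples with exact binomial intervals. Named list genes were those called with Ponatinib, at most 10 per list, or past 2-fold in the same direction in all 3 knockdowns. PDGFB and PDGFD in the Ponatinib comparison and FLT3, FLT4, TEK and LETM2 were added after their values were seen. Correlations of log2 CPM between repeats were 0.995 for DMSO and 0.992 for Ponatinib. Alternatives were other scalings, filters, prior counts, folds, transcript lengths (chosen after seeing the data), a replicate block and leaving out each replicate.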

Additional observations from a re-analysis of the deposited data

How the results depend on the processing

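PDGFRB kept its direction and call with Ponatinib under every alternative run, with log2 fold changes from 1.25 to 1.88 when each replicate was left out. The number of receptors called, 3, fell to 1 in DESeq2 and to 1 under the rule of fold over 2 with unadjusted p. In the fits that left out a replicate, the receptors called were not always the same ones. FGFR3 ranged from 0.78 to 0.99 and KDR from -1.16 to -0.52 over these fits. FGFR1 changed sign with total counts only (0.039) and without Ponatinib replicate 2 (0.0038), and ranged from -0.0095 to 0.0038 with a replicate left out. FGFR4 changed sign without Ponatinib replicate 2 (-0.13) and reached 1.18 without Ponatinib replicate 1. The causes were not tested. With the replicate number as a block, 3 receptors were again called and no receptor's call changed. Deviations of same-numbered samples had a correlation of -0.020 over 9421 genes. This cannot exclude that the samples were paired, because counting error makes up much of the DMSO deviations. With a fold over 1.5, the receptors past the mark numbered 2 with the ABL1 shRNA, 3 with the ABL2 shRNA and 2 with both. The edgeR fit of all 8 samples called 1 receptor with the ABL1 shRNA and 1 with both, against 0 past 2-fold in each. At 2 CPM in all 8 samples, 2 receptors counted as expressed in place of 4. Each fit without a replicate leaves 1 group with a single sample, taken to vary like the other group. Depth limits the 5 genes with almost no reads, and the knockdowns rest on 1 library each.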
